A study of Mus musculus with 2 samples.

Results

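Type 2 conventional dendritic cells (cDC2) made up 127 of the 25814 cells kept from 2 libraries of live CD45+ cells sorted from mouse liver tumors. The cells were chosen by raw counts of unique molecular identifiers (UMIs), which count each captured RNA molecule once. A cell belonged to them with at least 5 UMIs of H2-Ab1 and either at least 1 UMI of Cd209a or at least 1 each of Flt3 and Itgax. It also had to hold 0 UMIs of Xcr1, Clec9a, Siglech, Fscn1 and Cd79a, fewer than 10 of C1qa, C1qb and C1qc together, and at most 1 of Cd3d, Cd3e and Cd3g together. The levels of these genes in the members are therefore a description and not a finding.

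The tumors arose in male wild-type C57BL/6J mice, 6 to 8 weeks old and immunocompetent, after hydrodynamic injection of plasmids that overexpress MYC and disrupt Trp53, carried by sleeping beauty transposase (the lenvatinib-resistant Trp53KO/MYCOE model). All mice had a first course of lenvatinib, an inhibitor of several receptor tyrosine kinases, so both groups share the plasmids and that treatment, and the immune cells are the host's own. The lenvatinib library then came from tumors kept on lenvatinib, and the combo library from tumors given lenvatinib with palbociclib, an inhibitor of CDK4 and CDK6. There was 1 library per condition, and the number of mice behind it is not given in the sources used here, so treatment, mouse and library cannot be told apart. No value below has a replicate check, and all 95% intervals (exact Clopper-Pearson for shares, exact Poisson for sums, exact conditional binomial for ratios) cover counting error only.

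Conventional dendritic cells take up antigen in tissues, load its peptides onto MHC molecules and show them to T cells. cDC2 present mainly to CD4 T cells through MHC class II and depend on the transcription factor Irf4, whereas the other branch, cDC1, depends on Irf8 and Batf3 and hands antigen to CD8 T cells. In inflamed tissue and tumors, cDC2 share many genes with cells that derive from monocytes, such as Lyz2, Csf1r and Ccr2.

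The lenvatinib library held 78 members and the combo library 49. They were 0.549% of 14201 kept cells under lenvatinib (95% interval 0.434 to 0.685) and 0.422% of 11613 under combo (0.312 to 0.557). The ratio of combo to lenvatinib was 0.768 (0.526 to 1.11), so no difference in share was detectable at this number of cells. With Siglech left out of the rule, the counts were 115 and 119 cells and the ratio 1.27, so the direction rests on that criterion. cDC1, gated in the same way on Xcr1 or Clec9a, numbered 80 and 60 cells. cDC2 were thus 49.4% of both branches under lenvatinib (41.3 to 57.4) and 45.0% under combo (35.4 to 54.8), again with overlapping intervals. In the same libraries the C1q-low monocyte-lineage cells (Csf1r and Lyz2 positive, without Cd209a and Flt3) numbered 69 and 288 cells, with a ratio of shares of 5.10 (3.91 to 6.74). A gate for mature migratory dendritic cells, on Fscn1 and Ccr7, found 3 cells under lenvatinib and 0 under combo, which was too few for any comparison.

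The members held more UMIs than most cells of their libraries. Their median was 9955.5 UMIs per cell under lenvatinib and 13311 under combo, against 5541 and 5754 over all kept cells, and their summed UMIs were 796596 and 676800. The median share of mitochondrial UMIs in them was 3.65% and 2.92%. The libraries had 49 cell barcodes in common, and 0 of these belonged to a member. Scrublet called 1 member of each library a doublet, and 1 member of each library also passed a neutrophil gate (Csf3r and S100a8).

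The rule cut through few cells at the lower edge of H2-Ab1, and through more at other criteria. With all other criteria met, 5 lenvatinib cells and 0 combo cells had 5 or 6 UMIs of H2-Ab1, while 0 and 1 cells had 3 or 4. The 5 cells just inside held 12 UMIs of Cd209a, 8 of Clec10a and 78 of Cd74. The cell just outside held 2 of Cd209a, 0 of Clec10a and 6 of Cd74. Siglech, a surface protein of plasmacytoid dendritic cells, was the only criterion that 37 lenvatinib and 70 combo cells failed. These cells held a median of 13 and 18 Siglech UMIs, and 14 and 55 of them had a UMI of Klk1, another gene of plasmacytoid dendritic cells, which 0 members had. H2-Ab1 alone kept out 69 and 18 cells, and Clec9a alone 24 and 16. Cd209a, the C-type lectin receptor DC-SIGN homolog that marks these cells, brought in most members (chr8:3743397-3748984, minus strand, mm10). Under lenvatinib 52 members had Cd209a without the pair of Flt3 and Itgax, 18 had all 3 genes, and 8 had the pair alone. Under combo the counts were 25, 13 and 11. Summed over the members, H2-Ab1 had 4606 and 3724 UMIs, with a median of 54 and 64 per member, Flt3 82 and 68, and Itgax 104 and 63.

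The name was checked against genes that the rule did not use, which the plot of marker genes by class and library shows. Levels are in CPM, the UMIs of a gene per 1000000 UMIs summed over the cells of a class in 1 library. Clec10a, a lectin that binds galactose-type sugars and marks cDC2, stood at 241 CPM under lenvatinib and 256 CPM under combo. The same gene stood at 25.7 and 4.28 in cDC1, 13.5 and 29.7 in the monocyte lineage, and 3.29 and 3.02 in T cells. The cells that failed only Siglech also carried it, at 169 and 146 CPM, with a UMI in 18 of 37 and 42 of 70. In the members 35 of 78 and 28 of 49 had a UMI of it. Irf4, the factor cDC2 depend on, stood at 47.7 and 32.5 CPM, and at no more than 9.36 in cDC1 or the monocyte lineage, with 18.6 and 15.6 in T cells. Sirpa, the receptor of the signal CD47, was at 174 and 127 CPM against 25.0 and 14.5 in cDC1 and 362 and 235 in the monocyte lineage. Itgam, the integrin CD11b, was at 193 and 177 against 19.5 and 27.4 in cDC1 and 317 and 399 in the monocyte lineage. Both genes thus set the members apart from cDC1 but were higher in the monocyte lineage.

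**Figure D1:**
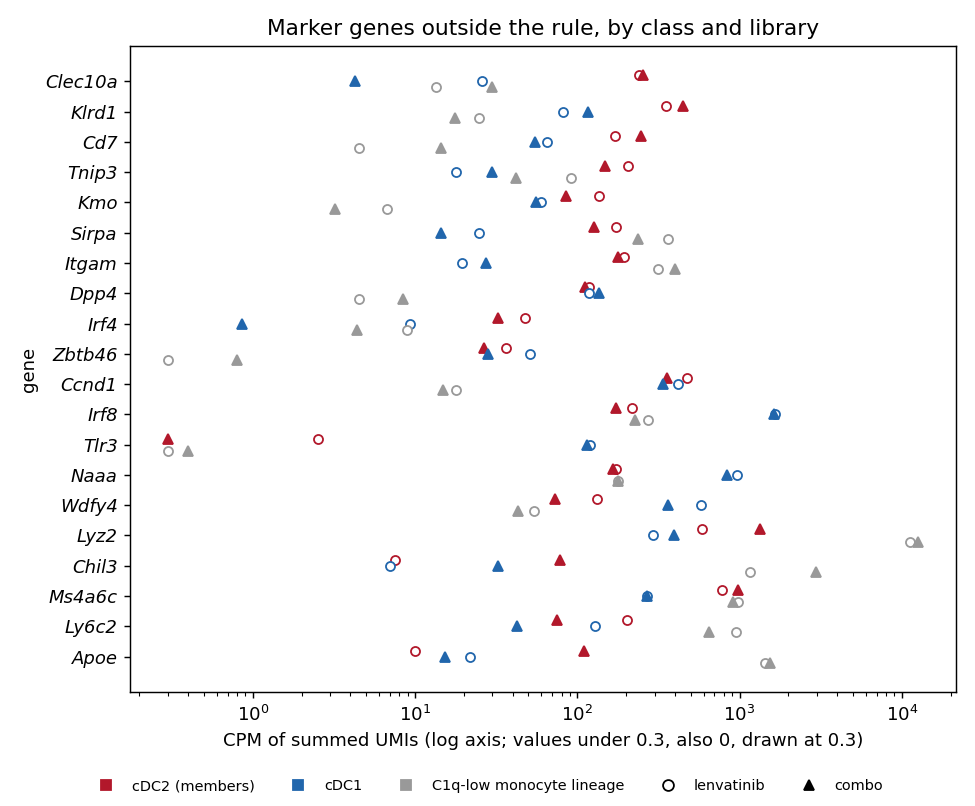
Summed UMIs as CPM (log axis) for 20 genes outside the rule, in the members (red), cDC1 (blue) and C1q-low monocyte-lineage cells (grey), with an open circle for lenvatinib and a triangle for combo. Clec10a, Klrd1, Cd7 and Tnip3 lay highest in the members in both libraries, Irf8, Naaa and Wdfy4 in cDC1, and Lyz2, Chil3 and Ly6c2 in the monocyte lineage.

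Irf8 and Tlr3, genes of cDC1, were lower in the members than in cDC1. No class of plasmacytoid dendritic cells or resident macrophages was gated, so the levels of their markers in such cells were not measured. Irf8 was at 216 and 173 CPM in the members, against 1657 and 1629 in cDC1. Tlr3, the receptor of double-stranded RNA found in cDC1, had 2 UMIs under lenvatinib and 0 under combo. The 10 markers of plasmacytoid dendritic cells summed to 826 and 557 CPM, above cDC1 (553 and 353), the monocyte lineage (433 and 395) and T cells (369 and 298). Most of that sum was Bst2 (306 and 232 CPM), which interferon induces in many cells, and the transcription factor Tcf4 (295 and 176). Siglech was at 0 by the rule, Klk1 was at 0 in both libraries, and Ly6d had a UMI in 4 and 6 members. The scavenger receptor Vsig4 of resident macrophages was at 0 in both libraries, and Mertk had 1 UMI under lenvatinib and 0 under combo. Zbtb46, a factor of conventional dendritic cells that monocytes lack, was at 36.4 and 26.6 CPM in the members and at 0 and 0.802 in the monocyte lineage. Of the 24 cDC2 markers outside the rule, Clec4a4, Esam and Ccr6 were at 0 in both libraries.

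Some members carried genes of neighbouring classes. At the lower cutoffs of Csf1r and Lyz2 given below, and without equal depth, most combo members did. At least 10 UMIs of Irf8 were found in 5 of 78 and 3 of 49 members. The members admitted by Flt3 and Itgax without Cd209a had Irf8 at 800 CPM under lenvatinib (8 cells) and 327 under combo (11 cells), and Clec10a at only 10.0 and 41.6. Their Irf8 rested on few cells. Of its 80 UMIs there under lenvatinib, single members held 32, 31 and 13, and of its 55 under combo, single members held 38 and 10. In the members with Cd209a but not the pair, Irf8 was at 125 and 113 CPM, and Clec10a at 307 and 301. The arm of the rule without Cd209a was therefore the one with less Clec10a in both libraries. Lyz2, the lysozyme of phagocytes, reached 20 UMIs in 7 and 10 members.

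Against cDC1, 183 of 3544 genes compared (5.16%) were at least 2-fold higher in the members in both libraries, and 88 (2.48%) at least 2-fold lower. The genes of the gates were left out. The higher ones included S100a4, a calcium-binding protein of motile cells, at 2970 and 2379 CPM against 493 and 482. Il1b, the inflammatory cytokine, was at 800 and 907 CPM against 198 and 199. Tnfsf9, the ligand of the costimulatory receptor 4-1BB, was at 172 and 297 CPM against 30.4 and 27.4. Dab2, an endocytic adaptor, was at 143 and 47.3 CPM against 1.56 and 5.99. Among the lower ones were Cst3, the cysteine protease inhibitor cystatin C, at 4293 and 3853 CPM against 14505 and 14979, and Id2, a repressor that cDC1 need, at 256 and 223 against 959 and 914. P2ry14, the receptor of UDP-glucose, was at 8.79 and 2.96 CPM against 112 and 82.1. Cxcl9, a chemokine for Cxcr3-bearing T cells, was at 10.0 and 4.43 CPM against 198 and 43.6.

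Against the monocyte lineage, 126 of 3748 genes (3.36%) were at least 2-fold higher in both libraries and 310 (8.27%) at least 2-fold lower. Ccnd1, the cyclin D1 that activates CDK4 and CDK6, was at 476 and 358 CPM in the members, close to its level in cDC1 (419 and 339), and at 18.0 and 14.8 in the monocyte lineage. Kmo, an enzyme of tryptophan breakdown, was at 136 and 85.7 CPM against 6.74 and 3.21. It was also found in cDC1: after thinning, 17.3% and 10.2% of cDC1 had a UMI of it, against 31.4% and 27.1% of members. Chil3, a chitinase-like secreted protein, was at 7.53 and 78.3 CPM against 1152 and 2968. Thbs1, thrombospondin, was at 2.51 and 14.8 CPM against 256 and 533. Ccnd1 thus lay near its level in cDC1, and Chil3 and Thbs1 far below theirs in the monocyte lineage.

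Of the genes outside the gates, Clec10a was the one whose smallest ratio of the members to either class in either library was highest, at 8.61. The classes were cDC1 and the monocyte lineage, and the cells that failed only Siglech, which also carried Clec10a, were not among them. Klrd1 followed at 3.84, Ifitm1 at 3.53, Mgl2 at 3.38 and Marveld1 at 3.32. Klrd1 encodes the CD94 chain of receptors on NK cells, and had a UMI in 51 of 78 and 39 of 49 members. Its level in the members was 354 and 451 CPM, against 301 and 343 in T cells. Trbc2, the T-cell receptor beta constant chain, was at 30.1 and 19.2 CPM in the members and at 1001 and 1236 in T cells. NK cells, which carry CD94 without Trbc2, were not measured, and the part of their RNA in this level was not tested. Cd7, a receptor of lymphocytes, was at 171 and 248 CPM in the members and 168 and 179 in T cells.

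The next question was how the members differed between the treatments. Of 3203 genes that reached 50 CPM in either library and 20 UMIs over both, 53 (1.65%) were at least 2-fold higher under combo and 175 (5.46%) at least 2-fold lower, as the plot of combo against lenvatinib shows. The median log2 ratio over all 3203 genes was -0.09. Scaling by trimmed mean of M values moved this median to 0.07 and the counts to 76 higher and 103 lower, so the share of higher among both changed from 23.2% to 42.5%. Gm42418, a transcript that overlaps ribosomal RNA sequence, was at 28853 CPM in the members under lenvatinib and 11720 under combo, and at 17136 and 11957 in T cells.

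**Figure D2:**
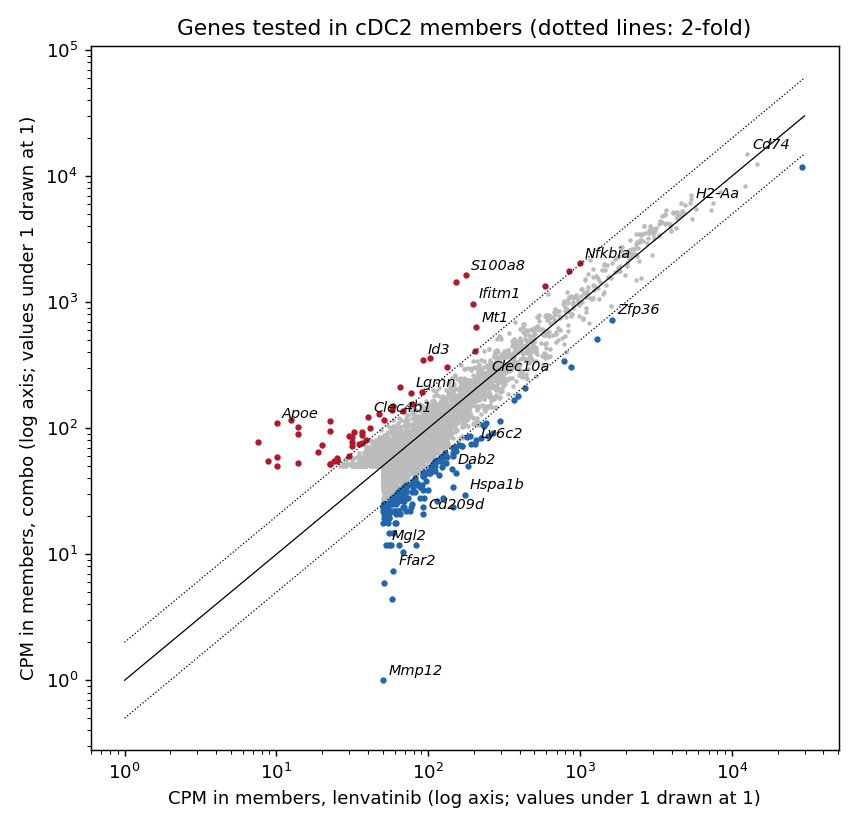
Each point is 1 of the 3203 genes tested in the members, with its CPM under lenvatinib and under combo on log axes. Red points are the 53 genes at least 2-fold higher under combo and blue points the 175 at least 2-fold lower, the dotted lines mark 2-fold, and the blue point at the far right is Gm42418.

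Free RNA from other cells can enter every droplet, and genes of other cells were read beside their level in T cells. S100a8, a calcium-binding protein of neutrophils, was at 177 CPM in the members under lenvatinib and 1639 under combo, and 752 of its 1109 UMIs under combo lay in the 1 member that passed the neutrophil gate. In T cells S100a8 was at 267 and 1612 CPM. Lcn2 (12.6 and 115 CPM in the members, 27.5 and 200 in T cells) and Retnlg (22.6 and 114, against 8.36 and 138) had the same pattern. Of 16 neutrophil genes listed, 8 were tested and 7 were at least 2-fold higher under combo, against 1.65% of all genes. The 16 genes summed to 782 and 4122 CPM in the members and 660 and 3858 in T cells, and the part of free RNA in this was not tested. In 1653 of the 3203 genes the members' CPM was at least that of all other kept cells in both libraries. Of these 1653, 25 were at least 2-fold higher and 40 at least 2-fold lower under combo, against 53 (1.65%) and 175 (5.46%) of all 3203. The share of higher genes was thus near that over all genes, and the share of lower genes was below it.

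Ifitm1, an interferon-inducible membrane protein that hinders virus entry, was the highest of those 25 by ratio. The members held it at 198 CPM under lenvatinib and 974 under combo, a ratio of 4.91 (4.12 to 5.88). A UMI of it was found in 32 of 78 and 41 of 49 members, with a median of 0 and 3 UMIs per member and a highest of 32 and 70. Thinned to 3000 UMIs per cell, which makes the depth equal, 31.4% (20.9 to 43.6) and 56.2% (41.2 to 70.5) of members had a UMI, with overlapping intervals. Of T cells, 2.94% and 19.8% had a UMI of Ifitm1. Its CPM in T cells was 12.5 and 87.9, in cDC1 40.6 and 222, and in the monocyte lineage 56.1 and 218, so Ifitm1 was higher under combo in each of these classes, and highest in neutrophils at 2437 and 3839. Of its family, Ifitm2 was at 1157 and 2153 CPM in the members, a ratio of 1.86 (1.71 to 2.02), and Ifitm3 at 2980 and 3760, a ratio of 1.26 (1.19 to 1.33). The ratio of Ifitm1 without the member of most UMIs in each library was 5.55, and its log2 ratio was 1.49 with Siglech left out of the rule, against 2.30. The gene lies at chr7:140967221-140969825 on the plus strand (mm10, GENCODE annotation).

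Clec4b1, a C-type lectin of dendritic cells, was at 40.2 and 123 CPM (ratio 3.05, 2.01 to 4.75), and at no more than 0.649 in T cells. In cDC1 it was at 15.6 and 12.0 CPM and in the monocyte lineage at 18.0 and 11.6, with no higher level under combo in either. With Siglech left out of the rule the log2 ratio of Clec4b1 was 0.92, short of 2-fold. Mt1, a metal-binding metallothionein, was at 207 and 634 CPM (ratio 3.06, 2.55 to 3.68). In cDC1 Mt1 was at 63.2 and 535 CPM. The plot of single members shows that for Ifitm1, Id3, Clec4b1 and Mt1 the cells of the libraries overlapped, and that cells at 0 were present in both.

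**Figure D3:**
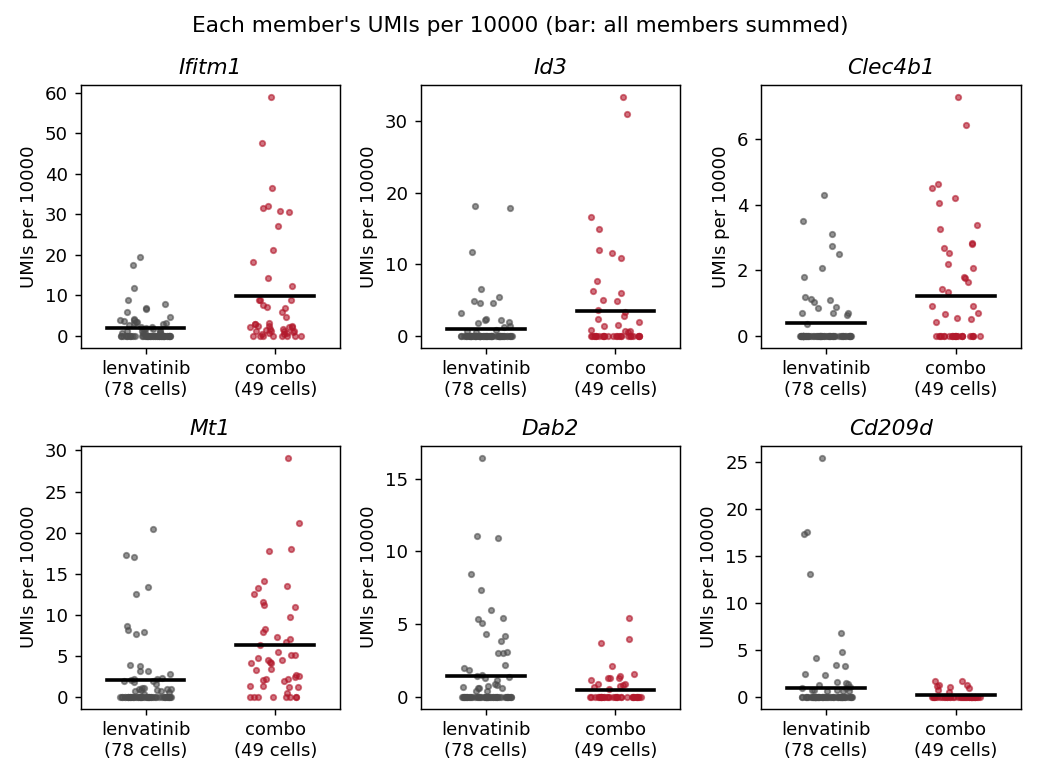
UMIs per 10000 UMIs of each member for Ifitm1, Id3, Clec4b1, Mt1, Dab2 and Cd209d, with 1 point per cell (78 under lenvatinib, 49 under combo) and a black bar at the level of all members summed. The bars of the first 4 genes lay higher under combo and those of Dab2 and Cd209d lower, with overlapping cells in all 6 panels.

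Of 30 transcription factors of dendritic cells listed, 25 were tested, 3 were at least 2-fold higher and 1 was at least 2-fold lower under combo, against 1.65% and 5.46% of all genes. Id3, a repressor of E proteins, was at 91.6 and 349 CPM (ratio 3.81, 2.92 to 5.02), in 19 of 78 and 23 of 49 members, and its log2 ratio was 1.40 in cells gated after thinning and 0.83, short of 2-fold, with Siglech left out of the rule. Batf3, the factor of cDC1, was at 47.7 and 129 CPM (ratio 2.69, 1.82 to 4.06). A UMI of it was found in 8.57% (3.21 to 17.7) and 29.2% (17.0 to 44.1) of thinned members, with overlapping intervals. In cDC1 itself Batf3 was at 199 and 277 CPM. Batf, of the same family, was at 30.1 and 87.2 CPM. Nr4a3, an early gene of receptor stimulation, was at 87.9 and 34 CPM (ratio 0.387, 0.230 to 0.627). Zeb2 (447 and 245 CPM) and Klf4 (432 and 256 CPM), both factors of the myeloid line and of cDC2, had ratios of 0.549 and 0.592, short of 2-fold. Irf4 had a ratio of 0.681 with an interval from 0.384 to 1.18.

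The lectin receptors of the members differed in both directions. Of 28 pattern recognition receptors measured, 14 were tested, Clec4b1 was past 2-fold upward, and Cd209d and Mgl2 were past it downward, against 1.65% and 5.46% of all genes. Cd209d, a homolog of Cd209a, was at 92.9 and 20.7 CPM (ratio 0.223, 0.116 to 0.398), in 24 of 78 and 9 of 49 members. Its direction turned with Siglech left out of the rule (log2 ratio 0.25). Mgl2, which binds galactose-type sugars as Clec10a does, was at 52.7 and 11.8 CPM, but 19 of its 42 UMIs under lenvatinib lay in 1 member. Cd209a itself was at 667 and 551 CPM and Clec10a had a ratio of 1.06 (0.859 to 1.31).

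Dab2 was at 143 CPM under lenvatinib and 47.3 under combo (ratio 0.330, 0.216 to 0.493), in 32 of 78 and 16 of 49 members. Ffar2, the receptor of short-chain fatty acids, was at 59.0 and 7.39 CPM (ratio 0.125, 0.0389 to 0.313), in 17 of 78 and 5 of 49 members, and its log2 ratio moved from -3.00 to -1.38 in cells gated after thinning. After thinning, 18.6% (10.3 to 29.7) and 10.4% (3.47 to 22.7) of members had a UMI of Dab2, with overlapping intervals. T cells held both genes at no more than 1.49 CPM. Hpgd, the enzyme that breaks down prostaglandins, was at 67.8 and 23.6 CPM. Mmp12, a macrophage elastase, had 40 UMIs under lenvatinib, 30 of them in 1 member, and 0 under combo. Apoe, the lipid carrier of macrophages, was the reverse case: 56 of its 74 UMIs under combo lay in 1 member, against 8 UMIs under lenvatinib. Most UMIs of both genes thus lay in a single cell.

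The other genes with the largest ratios are given for completeness. Upward, Lmna, the nuclear lamina protein, was at 13.8 and 102 CPM, Pltp, a phospholipid carrier, at 8.79 and 54.7, and Iglc1, an antibody light chain, at 10.0 and 59.1. Hp, the hemoglobin scavenger haptoglobin, was at 13.8 and 90.1 CPM. In T cells Iglc1 was at 9.65 and 50.9 CPM and Hp at 5.02 and 48.7, so both were also higher there under combo. Lmna was at 22.3 and 29.8 CPM in T cells and Pltp at 5.13 and 6.07. In cDC1 Lmna was at 34.3 and 98.4 CPM and in the monocyte lineage at 18.0 and 124, so it was higher under combo there too. Pltp was at 2.34 and 2.57 CPM in cDC1 and 47.2 and 37.3 in the monocyte lineage. Among genes at or above the level of other kept cells, Lrp1, an endocytic receptor, was at 22.6 and 94.6 CPM, and Id1, a relative of Id3, at 18.8 and 65.0. Lrp1 was short of 2-fold in cells gated after thinning (log2 ratio 0.72) and with Siglech left out of the rule (0.81). Flot1 was at 32.6 and 93.1 CPM and Cyp4f18 at 31.4 and 85.7. Downward, Zbtb20, a zinc finger repressor, was at 57.7 and 4.43 CPM, Il2rb, a chain of the interleukin-2 receptor, at 64.0 and 11.8, and Frmd4a at 60.3 and 22.2. In T cells Il2rb was at 719 and 450 CPM, Zbtb20 at 113 and 102 and Frmd4a at 11.3 and 8.54, each lower under combo. The part of free RNA in the members' Il2rb was not tested. With Siglech left out Zbtb20 was short of 2-fold (log2 ratio -0.21), as was Frmd4a in cells gated after thinning (-0.83) and with Siglech left out (-0.74). Ifi211 (82.9 and 11.8 CPM), Prc1 (51.5 and 5.91), Nsd2 (92.9 and 32.5) and Cenpf (61.5 and 20.7) had the opposite direction in cells gated after thinning, with log2 ratios of 0.043, 0.060, 0.12 and 0.64.

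At full depth, members under combo more often held Csf1r and Lyz2 at the cutoffs below, but no difference was detectable at equal depth. Lyz2 was at 590 and 1334 CPM (ratio 2.26, 2.02 to 2.53), and at 45.9 and 295 in T cells, where it was also higher under combo. At least 1 UMI of Csf1r with at least 5 of Lyz2 was found in 10 of 78 members (12.8%, 6.32 to 22.3) and in 31 of 49 (63.3%, 48.3 to 76.6). After thinning, with at least 1 UMI of each, the counts were 9 of 70 (12.9%, 6.05 to 23.0) and 12 of 48 (25.0%, 13.6 to 39.6), and the intervals overlapped. The part of depth and of Lyz2 from other cells in this split was not tested. Ly6c2, the surface protein of inflammatory monocytes, was lower under combo, at 203 and 75.4 CPM (ratio 0.371, 0.265 to 0.510), and Ccr2, the receptor that draws monocytes, was at 512 and 338. Fn1, F13a1 and Vcan, secreted products of monocytes, stood at most at 66.5 CPM in the members against at least 189 in the monocyte lineage.

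The treatments were then compared within members above and below these cutoffs, a split chosen after seeing the data. The cutoffs were set at full depth, and whether each set holds like members in both libraries was not tested. Ifitm1 was at 205 CPM (68 cells) and 975 CPM (18 cells) in members without Csf1r and Lyz2 at these levels, and at 165 (10 cells) and 973 (31 cells) in members with them. Its difference was thus present in both. Mt1 also differed in both, at 215 and 532 CPM without and 165 and 689 with. Clec4b1 was at 37.4 and 50.6 CPM without and 54.9 and 161 with. Dab2 differed in the members without, at 167 CPM (138 to 201) and 33.8 (14.6 to 66.5), whereas those with held 15.7 (1.90 to 56.7) and 54.6 (35.0 to 81.2), with overlapping intervals.

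**Figure D4:**
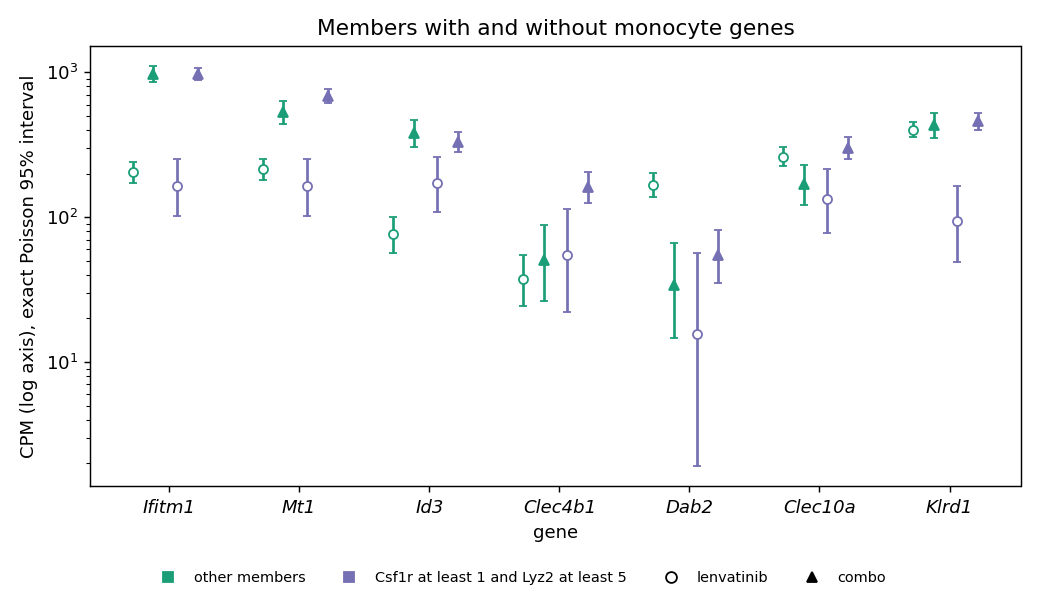
CPM on a log axis with exact Poisson 95% intervals for 7 genes in members without (green) and with (violet) at least 1 UMI of Csf1r and 5 of Lyz2, with an open circle for lenvatinib and a triangle for combo. Ifitm1 and Mt1 lay higher under combo in both sets, Clec4b1 was clear of the lenvatinib interval in the violet set alone, and Dab2 lay lower under combo in the green set.

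The MHC class II genes tested, the means by which cDC2 show antigen, were all but 1 within 2-fold between the libraries. Of the 17 genes measured, H2-Ab1 of the rule included, 15 were tested, 1 was at least 2-fold higher and 0 at least 2-fold lower. Since 1.65% and 5.46% of all genes were past 2-fold in these directions, both counts are near the background. The median log2 ratio of the 15 was 0.19 against -0.09 over all genes. The chains H2-Aa and H2-Eb1 were at 5293 and 6056 CPM and at 4116 and 5216 CPM, with ratios of 1.14 (1.10 to 1.19) and 1.27 (1.21 to 1.33). Cd74, the invariant chain that guards the peptide groove, was at 12516 and 14833 CPM. Ciita, the coactivator that switches these genes on, was at 211 and 112 CPM, a ratio of 0.532 (0.401 to 0.702). Lgmn, a lysosomal protease of antigen processing, was the 1 gene past 2-fold, at 76.6 and 191 CPM (ratio 2.49, 1.82 to 3.43), in 30 of 78 and 41 of 49 members. The monocyte lineage held H2-Aa at 483 and 326 CPM.

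The promoters of the chains H2-Aa and H2-Eb1 are shown because the Y box in such promoters is part of the element through which Ciita acts, and Ciita had a lower ratio than both chains. Each is the 250 bases before the RefSeq start in build GRCm38.p6, 5′ to 3′ on the strand of the gene. Capitals mark the letters CTGATTGG of the Y box, searched on both strands.
H2-Aa, chr17:34287824-34288073, minus strand: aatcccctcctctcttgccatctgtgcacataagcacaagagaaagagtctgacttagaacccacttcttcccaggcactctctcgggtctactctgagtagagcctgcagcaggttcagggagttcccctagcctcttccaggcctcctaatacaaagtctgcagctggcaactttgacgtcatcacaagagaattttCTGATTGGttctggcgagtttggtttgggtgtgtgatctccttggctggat
H2-Eb1, chr17:34305617-34305866, plus strand: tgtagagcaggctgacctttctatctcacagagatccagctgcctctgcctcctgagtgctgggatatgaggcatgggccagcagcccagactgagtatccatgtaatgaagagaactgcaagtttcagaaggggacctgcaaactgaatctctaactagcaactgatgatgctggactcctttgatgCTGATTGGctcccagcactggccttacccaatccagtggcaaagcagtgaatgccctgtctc
The letters began 51 bases before the start of H2-Aa and 62 before that of H2-Eb1. They were in 3.83% of the 32851 windows of this kind, and in the windows of 4 of the 14 genes of the MHC class II list that the table covers. A match in letters is not a bound site.

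MHC class I genes were also within 2-fold. Of 15 measured, 12 were tested, 0 were past 2-fold in either direction, and their log2 ratios ran from -0.30 to 0.40. B2m, the light chain of class I molecules, was at 1421 and 1157 CPM. Of 21 costimulation and checkpoint ligands, 11 were tested and 0 were past 2-fold. Since 1.65% and 5.46% of all genes were past it, a count of 0 in lists of this size is near the background. Cd86, the ligand of CD28, was at 102 and 97.5 CPM, and Cd83, a surface protein of activated dendritic cells, at 218 and 211. Tnfsf9 had a ratio of 1.73 (1.38 to 2.16), but was at 185 and 135 CPM in members without Csf1r and Lyz2 at the levels above, and at 102 and 384 in members with them. Cd274, which encodes PD-L1, was under the level for testing, with 32 and 8 UMIs in 19 and 6 members.

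Among cytokines, Il1b was found in 48 of 78 and 44 of 49 members, with a ratio of 1.13 (1.01 to 1.27). Il12b, Il12a, Il6 and Il27 had 0 UMIs in both libraries, in sums of 796596 and 676800. The exact Poisson interval of 0 UMIs reaches 5.45 CPM under combo. Il23a, a subunit of the cytokine through which cDC2 steer T helper cells, had 2 and 5 UMIs. Of 18 chemokines, 8 were tested and 3 were at least 2-fold higher under combo, against 1.65% of all genes. Ccl4, a chemokine that draws T cells and monocytes, was at 846 and 1761 CPM (ratio 2.08, 1.89 to 2.29). It was at 491 and 600 in T cells, and lower under combo in the monocyte lineage, at 970 and 275. Cxcl2, which draws neutrophils, was at 103 and 363 CPM in the members and at 50.4 and 202 in T cells. Cxcl10, a ligand of Cxcr3, was at 133 and 306 CPM (ratio 2.30, 1.81 to 2.93), in 14 of 78 and 21 of 49 members, and at 165 and 144 in T cells.

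Nfkbia, the inhibitor that NF-kB induces as its own brake, was at 992 and 2027 CPM (ratio 2.04, 1.87 to 2.23). It was the 1 gene of 15 tested in the NF-kB list past 2-fold, near the background of 1.65% of all genes. The list's median log2 ratio was -0.26. Within members without Csf1r and Lyz2 at the levels above Nfkbia was at 918 and 1316 CPM, and within those with them at 1381 and 2410, short of 2-fold in both. Nfkbiz, at 412 and 266 CPM, and Tnip3, at 205 and 149 CPM, had ratios of 0.646 and 0.729. Interferon-stimulated genes had a median log2 ratio of -0.27, with 2 of 19 tested past 2-fold downward and 0 upward, against 5.46% and 1.65% of all genes. Ifi205, a DNA-sensing family member, was at 94.2 and 28.1 CPM, and Ly6a at 131 and 53.2. The direction of Ifi205 turned in cells gated after thinning (log2 ratio 1.74). Ifi27l2a, outside that list, was at 869 and 304 CPM in the members (ratio 0.350, 0.298 to 0.410) and at 566 and 276 in T cells. No gene of the list was past 2-fold in the direction of Ifitm1, which with 1.65% of all genes past it is near the background.

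Palbociclib acts on CDK4 and CDK6, which Ccnd1 activates to start S phase. Of 8 genes tested in this pathway, Cdk6 alone was past 2-fold, at 55.2 and 19.2 CPM (ratio 0.348, 0.172 to 0.657), from 44 and 13 UMIs. With 5.46% of all genes at least 2-fold lower, 1 of 8 is near the background. Ccnd1 had a ratio of 0.752 (0.637 to 0.885) and Cdk4 of 0.772 (0.511 to 1.16). Of 12 S-phase genes tested, 7 were at least 2-fold lower under combo, against 5.46% of all genes, and of 10 genes of G2 and mitosis 5 were. Pcna, the clamp of DNA polymerase, was at 246 and 87.2 CPM, Mcm2, of the replication helicase, at 56.5 and 11.8, and Mki67 at 152 and 44.3. Top2a, a topoisomerase of dividing cells, was at 144 and 23.6 CPM. Its direction changed in cells gated after thinning to 3000 UMIs (log2 ratio 0.079).

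The sums of mitosis genes rested on few cells. The 5 members with the most held 65.9% of the 1714 UMIs of these genes under lenvatinib and 63.9% of the 840 under combo, and the S-phase UMIs were 1036 and 357, with 49.2% and 45.1% in 5 members. The share of members with at least 2 of 18 mitosis genes was 8 of 70 (11.4%, 5.07 to 21.3) and 6 of 48 (12.5%, 4.73 to 25.2) after thinning, a ratio of 1.09 (0.313 to 3.59). Without thinning it was 24.4% and 34.7%. No difference in the share of members that hold mitosis genes was thus detectable. In T cells, measured in the same way, the share was 13.6% and 4.09%, a ratio of 0.301 (0.254 to 0.356).

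Among immediate early and heat shock genes, 26 were tested, 3 were at least 2-fold lower under combo and 0 higher, against 5.46% and 1.65% of all genes. Zfp36, an RNA-binding protein that ends the messages of cytokines, was at 1621 and 723 CPM (ratio 0.446, 0.401 to 0.495), with UMIs in 76 of 78 and 47 of 49 members. Hspa1b, an inducible heat shock protein, was at 173 and 29.6 CPM and Hspa1a at 127 and 59.1. In cDC1 Zfp36 was at 778 and 472 CPM and Hspa1b at 327 and 66.7. In T cells Hspa1b was at 63.1 and 55.9 CPM. Such genes are also known to respond to tissue dissociation, and with 1 library each, handling and treatment cannot be told apart.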

How the data were processed

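Live CD45+ tumor cells were profiled by droplet-based 3′ single-cell RNA sequencing in 2 libraries. The authors deposited raw UMI counts for 32285 genes per barcode, aligned to mm10. The submitters' processing notes name Cell Ranger 5.0.1, whereas the matrix header names 6.0.1. The libraries held 98107503 UMIs in 14509 barcodes (lenvatinib) and 93583402 in 11989 (combo). Barcodes with more than 6000 genes or over 25% mitochondrial UMIs were removed, following the study's methods (308 and 376). Classes were gated on raw UMIs. T cells, beside which genes of other cells were read, had at least 3 UMIs of the Cd3 genes. UMIs were summed per class and library and divided by their total. Genes that reached 50 CPM in either library and 20 UMIs over both were compared, and a 2-fold ratio was counted as a description, since 1 library per condition allows no test. For shares at equal depth, cells were thinned to 3000 UMIs and shallower ones left out (8 and 1 members; 5675 of 6309 and 4205 of 4577 T cells were kept). Scrublet called 4.46% and 2.76% of kept cells doublets, which were kept.

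Named genes were those of the rule and the gene lists, the 10 highest and 10 lowest ratios, the same among genes at or above the level of other kept cells, and the extremes against each class. A few others were named after their values were seen. Some genes that the rule would name are not reported here. The members and lists were chosen with earlier results of these data known. Ratios against a sum of 0 used a floor of 3 counts. Promoter windows came from a RefSeq table and gene positions from GENCODE. Python 3.11.15 with numpy 2.4.6, pandas 2.3.3, scipy 1.17.1, scanpy 1.11.5 and matplotlib 3.10.9 was used, and edgeR 4.0.16 in R 4.3.3 gave the alternative scaling alone. The computation was tested on simulated data.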

Additional observations from a re-analysis of the deposited data

How the results depend on the processing

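With 1 library per condition, no replicate could be left out and no value has a spread between replicates. No paired analysis was possible because the labels give 1 sample per group. The ratio of the members' shares was below 1 in every alternative run but 1, from 0.640 (gate after thinning to 3000 UMIs) to 0.856 (H2-Ab1 at least 10 UMIs). The exception, with Siglech left out of the rule, gave 1.27, with 99 genes higher and 107 lower under combo, 234 higher than in the monocyte lineage (126 with the rule), and Cd209d (log2 ratio 0.25) and Cenpf (0.099) turned. It admits 37 and 70 cells, of which 14 and 55 had Klk1. Of the 53 genes higher and 175 lower under combo, the counts moved to 85 higher without mitochondrial, ribosomal protein and hemoglobin genes, to 103 lower with TMM scaling, to 152 higher and 600 lower with no minimum CPM, and to 289 lower with the mean of CPM per member. The 88 genes lower than in cDC1 became 55 with the thinned gate. That gate also turned the log2 ratio of Prc1 (0.060), Ifi211 (0.043), Top2a (0.079), Ifi205 (1.74), Cenpf (0.64) and Nsd2 (0.12). It keeps 49 of 67 and 27 of 39 cells from the members, and by its construction admits cells that hold Xcr1, Clec9a or Siglech at full depth. Leaving out members of doubtful identity (10 or more Irf8 UMIs, 20 or more Lyz2 UMIs, or in the neutrophil gate), like leaving out Siglech, was chosen after seeing the data. It gave 52 to 61 genes higher and 175 to 214 lower.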
